A study of Mus musculus with 8 samples.

Results

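The 10 genes described here mark successive steps of the oligodendrocyte lineage, from the dividing precursor to the cell that begins to make myelin. They are Bmp4, Pdgfra, Gpr17, Cspg4, Tnr, Olig1, Olig2, Sox10, Enpp6 and Bcas1, and each was taken from the deposited count table by its gene symbol. All 10 were found, among 46078 gene entries, and all 10 had enough counts to be tested. RNA was measured in 4 hippocampal libraries of Cre mice and 4 of WT mice. The Cre mice carry the transgene Tg(Camk2a-cre)2Gsc (CamiCre, Cre+/-), in which regulatory DNA of Camk2a, a gene of excitatory neurons, drives the Cre recombinase, and the WT mice lack it. All mice were 9 weeks old and C57BL/6J, and the labels name no floxed allele and no treatment. Cre is therefore directed to neurons and not to the cells that express most of these 10 genes. Nothing in the labels ties a library to its own animal, so p-values measure the spread between these libraries, which may be technical.

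Oligodendrocyte precursors persist in the adult hippocampus, where they divide slowly and generate new oligodendrocytes. They respond to platelet-derived growth factor through the receptor encoded by Pdgfra, and carry the proteoglycan encoded by Cspg4. The transcription factor genes Olig1, Olig2 and Sox10 are active throughout the lineage. On commitment a precursor loses Pdgfra and passes through a brief stage marked by Gpr17, Bmp4 and Enpp6 before it makes the major myelin proteins. Bcas1 marks early myelinating oligodendrocytes.

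Library totals ran from 21339996 to 27826871 counts in Cre and from 24289522 to 26950207 in WT. Levels are given as CPM, counts per 1000000 library counts after TMM scaling, a correction for differences in library composition. Syt2, the gene that names the series, had 176 ± 12.2 CPM in Cre and 35.4 ± 4.10 CPM in WT (SD, n = 4 each). Camk2a, the most abundant of the 9 hippocampal neuron markers, had 4669 ± 149 CPM in Cre and 4652 ± 120 CPM in WT, and none of those markers was at 0. WT replicate 1 stood apart by its choroid plexus genes, the 8 of which summed to 1000.4 CPM there, against 23.1 to 35.2 CPM in Cre and 24.6 to 33.5 CPM in the other WT libraries.

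Of the members, 6 have an entry in the table of promoter sequences from RefSeq (GRCm38.p6): Pdgfra, Cspg4, Olig2, Bmp4, Enpp6 and Tnr. The 250 bases before the start of Pdgfra and Enpp6 are printed because these genes mark an earlier and a later stage and differed in how they varied between libraries. The Pdgfra window is chr5:75152001-75152250 and the Enpp6 window is chr8:46986637-46986886, both on the plus strand, and the capitals mark ACAAT, the short core recognised by SOX proteins.
Pdgfra: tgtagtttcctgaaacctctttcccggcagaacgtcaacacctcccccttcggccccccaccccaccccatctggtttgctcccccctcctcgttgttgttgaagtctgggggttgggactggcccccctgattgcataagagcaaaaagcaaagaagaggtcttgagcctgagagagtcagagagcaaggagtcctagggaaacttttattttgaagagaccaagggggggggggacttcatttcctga
Enpp6: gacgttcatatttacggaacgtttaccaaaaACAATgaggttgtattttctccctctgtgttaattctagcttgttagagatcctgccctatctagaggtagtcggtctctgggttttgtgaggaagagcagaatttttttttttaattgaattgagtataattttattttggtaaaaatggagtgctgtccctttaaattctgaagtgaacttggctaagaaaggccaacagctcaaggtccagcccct

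The Pdgfra window has a GC content of 54.4% and no ACAAT on either strand, while the Enpp6 window has a GC content of 38.4% and 1 such match. Searched on both strands, the core ACAAT occurred in 3 of the 6 member windows, those of Cspg4, Olig2 and Enpp6, and in 27.7% of all 32851 windows of this length. The SOX-type core ACAAAG occurred, likewise on both strands, in 1 of the 6, that of Tnr, against 16.5% of all windows. The E-box CAGCTG, a type of site bound by OLIG proteins that reads the same on both strands, occurred in 0 of the 6, against 13.0%. These matches describe letters only.

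The comparison of Cre with WT asked whether genes of this lineage differ in hippocampus that carries the transgene. No member could be called higher or lower in Cre. In edgeR's quasi-likelihood test, adjusted by Benjamini-Hochberg over all 15859 genes tested, 0 of 10 members passed the threshold of 0.05, where 0.0315% of all genes did (4 higher and 1 lower in Cre). At an unadjusted p under 0.05 there were also 0 of 10 members, against 3.50% of all genes, and DESeq2 and limma voom called 0 of 10 as well. The Cre and WT libraries overlapped in all 10 members, whereas they did not overlap in 2.31% of all genes. The fitted fold changes lay above 0 in 7 members and below 0 in 3, with a median log2 fold change of 0.03, beside 0.0004 for all genes tested, of which 50.2% lay above 0. In whole tissue, fewer cells of a type and less RNA per cell cannot be told apart.

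The signals and receptors are given first. Bmp4, on chromosome 14 (46383520 to 46390669, minus strand, GRCm38), encodes a secreted bone morphogenetic protein, a class of signal that holds precursors back from becoming oligodendrocytes. It had 2.13, 1.94, 1.43 and 2.12 CPM in Cre replicates 1 to 4, against 1.70, 2.71, 1.74 and 1.65 CPM in WT replicates 1 to 4. WT replicate 2 was the highest of the 8 libraries and Cre replicate 3 the lowest, and the groups overlapped. Bmp4 rested on 40 to 73 counts per library, the fewest of the members, and its log2 fold change was -0.04 (SE 0.21). In WT replicate 2 the 9 markers of meningeal fibroblasts, a cell type of the brain's coverings, summed to 198 CPM, against 90.9 to 112 CPM in Cre and 89.7 to 145 CPM in the other WT libraries. Of these 9 markers 1 lay above 0 and 8 below, none was at 0 counts in every library, and their part in the Bmp4 value was not tested.

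Pdgfra, on chromosome 5 (75152292 to 75198215, plus strand), encodes the receptor through which platelet-derived growth factor keeps precursors dividing. It had 56.4, 61.5, 60.7 and 53.0 CPM in Cre, against 61.8, 61.1, 61.2 and 55.9 CPM in WT, in the order of the replicate numbers. Cre replicate 4 and WT replicate 4 were the lowest in their groups and the groups overlapped. The log2 fold change was -0.05 (SE 0.05), the lowest among the members. Gpr17, on chromosome 18 (31942997 to 31949636, minus strand), encodes a G protein-coupled receptor of committed precursors that restrains their maturation. It had 61.8, 53.2, 58.2 and 55.8 CPM in Cre, against 46.1, 51.9, 55.0 and 62.0 CPM in WT. Both the lowest and the highest library were WT, with a log2 fold change of 0.09 (SE 0.08). The Gpr17 gene lies inside the span of Lims2 on the opposite strand, and since the strand setting of the counting is not given, reads of the pair cannot be assigned with certainty. Lims2 had 8.14 ± 1.23 CPM in Cre and 8.01 ± 0.75 CPM in WT (SD, n = 4 each).

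The next pair belongs to the cell surface and the matrix. Cspg4, on chromosome 9 (56865033 to 56899870, plus strand), encodes the NG2 proteoglycan, which precursors share with pericytes of the vessel wall. It had 26.0, 26.3, 24.3 and 23.9 CPM in Cre, against 22.7, 26.3, 24.7 and 24.6 CPM in WT. Cre replicate 2 was the highest and WT replicate 1 the lowest of the 8 libraries, and the groups overlapped, with a log2 fold change of 0.03 (SE 0.06). The 9 pericyte markers, of which 2 lay above 0, summed to 169 to 197 CPM in Cre and 171 to 215 CPM in WT, and none was at 0 counts in every library. Their part in the Cspg4 level was not tested. Tnr, on chromosome 1 (159523769 to 159931729, plus strand), encodes tenascin-R, an extracellular matrix protein of perineuronal nets and nodes of Ranvier made by the oligodendrocyte lineage and by some interneurons. It had 260, 254, 222 and 235 CPM in Cre, against 242, 248, 262 and 243 CPM in WT. Cre replicates 3 and 4 were the lowest of the 8 libraries, while Cre replicates 1 and 2 lay within the WT range, and the log2 fold change was -0.03 (SE 0.05).

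The transcription factors come next. Olig1 and Olig2, which encode related helix-loop-helix proteins, lie 41.1 kb apart on chromosome 16 (91269772 to 91271933 and 91225457 to 91228677, both plus strand). Olig1 had 141, 126, 123 and 108 CPM in Cre, against 119, 117, 114 and 114 CPM in WT. The Cre libraries lay on both sides of the narrow WT range, with 3 above it and replicate 4 below it, and the log2 fold change was 0.10 (SE 0.07), the highest among the members. Olig2, the factor required to specify the lineage, had 32.2, 30.7, 29.5 and 28.8 CPM in Cre, against 33.0, 28.1, 29.0 and 29.6 CPM in WT. All Cre values of Olig2 lay inside the WT range, and the log2 fold change was 0.02 (SE 0.06). Sox10, on chromosome 15 (79154908 to 79165240, minus strand), encodes an HMG-box factor that activates myelin genes together with its partners. It had 52.9, 43.5, 42.1 and 35.1 CPM in Cre, against 40.4, 37.5, 45.6 and 42.95 CPM in WT. Cre replicates 1 and 4 were the highest and the lowest of the 8 libraries, and the log2 fold change was 0.06 (SE 0.10).

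The last pair marks cells in the course of differentiation. Enpp6, on chromosome 8 (46986887 to 47096762, plus strand), encodes a choline-specific phosphodiesterase of newly forming oligodendrocytes. It had 5.77, 4.54, 3.90 and 3.63 CPM in Cre, against 4.44, 4.30, 4.40 and 4.32 CPM in WT. The WT libraries were nearly equal and lay inside the Cre range, and the log2 fold change was 0.03 (SE 0.15). Bcas1, on chromosome 2 (170346991 to 170427845, minus strand), encodes a protein of early myelinating oligodendrocytes. It had 159, 140, 128 and 124 CPM in Cre, against 124, 134, 132 and 124 CPM in WT. Cre replicates 1 and 2 lay above all WT libraries and the other Cre libraries lay among them, with a log2 fold change of 0.10 (SE 0.07). Antisense genes annotated within Bcas1 and other genes that overlap a member, Lims2 apart, had at most 8 counts in any library where they have an entry.

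**Figure D1:**
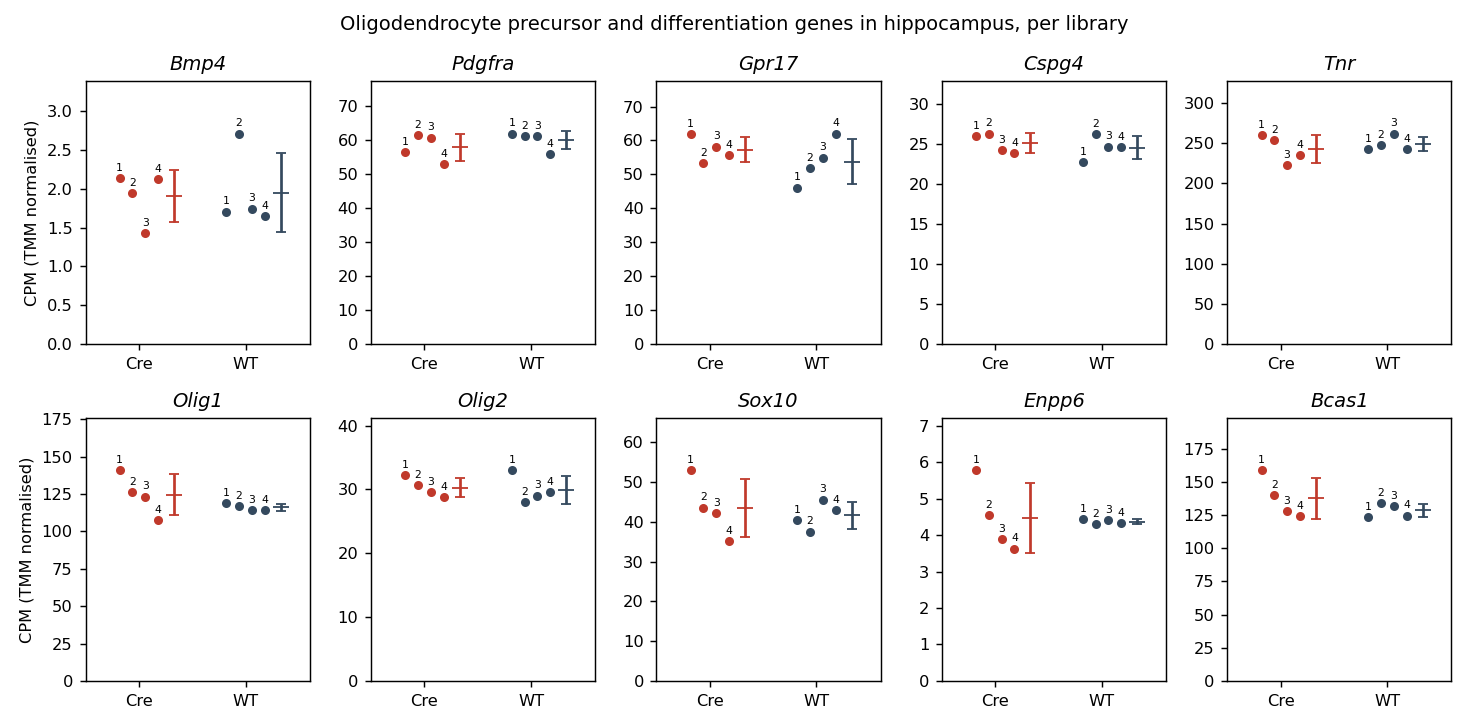
CPM of each member in every library (y axis from 0), Cre at the left and WT at the right of each panel, where a point is 1 library with its replicate number and the bar is the mean ± SD of 4 libraries. The groups overlap in all 10 panels, and the Cre points of Enpp6 spread from 3.63 to 5.77 CPM around WT points at 4.30 to 4.44 CPM.

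All 10 members had an adjusted p of 0.999 by edgeR's quasi-likelihood test, and their unadjusted p-values ran from 0.148 for Olig1 to 0.857 for Enpp6. The 2-sided exact permutation test of log2 CPM gave p from 0.314 to 1, where 0.0286 is the smallest p this design allows. The 95% intervals of the fold changes state what these libraries leave possible. For Tnr the interval ran from -9.41% to 5.39% relative to WT, and for Pdgfra from -10.9% to 4.55%. For Olig1 and Bcas1 it reached 18.2% and 18.6% upward, and for Sox10 it ran from -10.2% to 21.4%. Over the 8 members with more than 500 counts in every library, no interval reached below -10.9% or above 21.4%. The intervals of Enpp6 (-18.4% to 27.2%) and Bmp4 (-29.6% to 33.99%) were wider. Differences of these 2 genes within them were not detectable with these libraries. The limits of an interval do not give the size of change that would pass the adjusted threshold. The spread beyond counting error that edgeR estimated was 12.5% for Enpp6 and 17.4% for Bmp4, beside counting errors of about 9.54% and 14.4%.

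**Figure D2:**
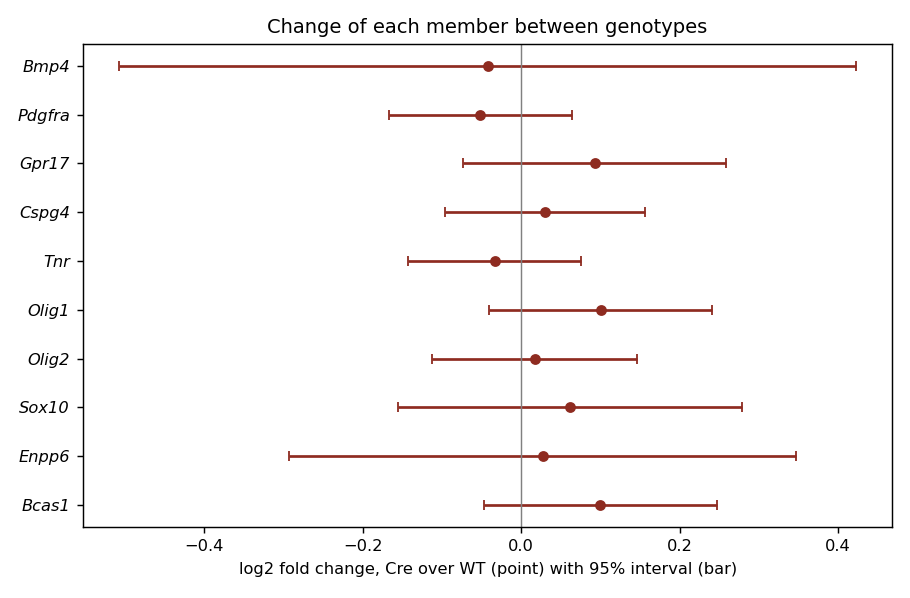
Log2 fold change of each member, Cre over WT (x axis), as a point with its 95% interval from the quasi-likelihood fit, 1 gene per line. All 10 intervals include 0, from -0.17 to 0.06 for Pdgfra to the widest, -0.51 to 0.42 for Bmp4.

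The authors' deposited table of the same comparison listed all 10 members with log2 fold changes from -0.05 for Pdgfra to 0.10 for Olig1. Its p-values for the members ran from 0.155 for Olig1 to 0.923 for Bmp4, in the authors' deposited table.

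Levels can be compared between genes only per length of transcript. CPM were therefore divided by the length in kb of all annotated exons of each gene, merged (GENCODE M21). This length can exceed that of the transcripts present, so the order of the genes is approximate. On this scale Olig1 was the highest, at 57.6 ± 6.27 CPM per kb in Cre and 53.7 ± 1.10 CPM per kb in WT, followed by Bcas1 at 36.5 ± 4.10 in Cre and 34.0 ± 1.37 in WT (SD, n = 4 each). Tnr, Sox10, Olig2 and Gpr17 followed, from 18.9 ± 1.35 CPM per kb for Tnr in Cre to 11.0 ± 0.70 for Gpr17 in Cre, with 19.3 ± 0.71 for Tnr and 10.3 ± 1.27 for Gpr17 in WT. Over the 8 libraries the ranges of neighbours among these 4 genes overlapped, and Gpr17 exceeded Olig2 in 1 library. Pdgfra stood at 5.78 ± 0.39 CPM per kb in Cre and 5.98 ± 0.28 in WT, and Cspg4 at 2.11 ± 0.10 in Cre and 2.06 ± 0.12 in WT, each apart from its neighbours in all 8 libraries. Bmp4 (0.85 ± 0.15 CPM per kb in Cre, 0.87 ± 0.22 in WT) and Enpp6 (0.70 ± 0.15 in Cre, 0.68 ± 0.01 in WT) were the lowest, and their ranges over the libraries overlapped.

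Libraries of the same genotype also differed from one another. Relative to the mean of the 8 libraries, Cre replicate 1 was above the mean in 9 of 10 members, with a mean deviation of 0.17 on the log2 scale, and Cre replicate 2 was above it in 9 of 10, with 0.04. Cre replicate 4 was above the mean in 2 of 10, Gpr17 and Bmp4, with a mean deviation of -0.09. The mean deviations of the WT libraries lay between -0.05 and 0.02. The member that was not high in Cre replicate 1 was Pdgfra, at -0.06, while Enpp6 stood at 0.39, Sox10 at 0.33, Bcas1 at 0.26 and Olig1 at 0.23 above their means there. The ratio of Enpp6 to Pdgfra, on the log2 scale and without correction for length, was -3.28, -3.75, -3.95 and -3.86 in Cre replicates 1 to 4, against -3.79, -3.82, -3.79 and -3.69 in WT replicates 1 to 4. Cre replicate 1 had the highest ratio and Cre replicate 3 the lowest, so this ratio did not separate the genotypes. In the same order, Bcas1 to Pdgfra gave 1.49, 1.19, 1.08 and 1.23 in Cre, against 0.998, 1.13, 1.11 and 1.16 in WT. Gpr17 to Pdgfra gave 0.13, -0.21, -0.06 and 0.07 in Cre, against -0.42, -0.23, -0.15 and 0.15 in WT. The means of both were higher in Cre, the genotypes overlapped, and no ratio was tested.

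**Figure D3:**
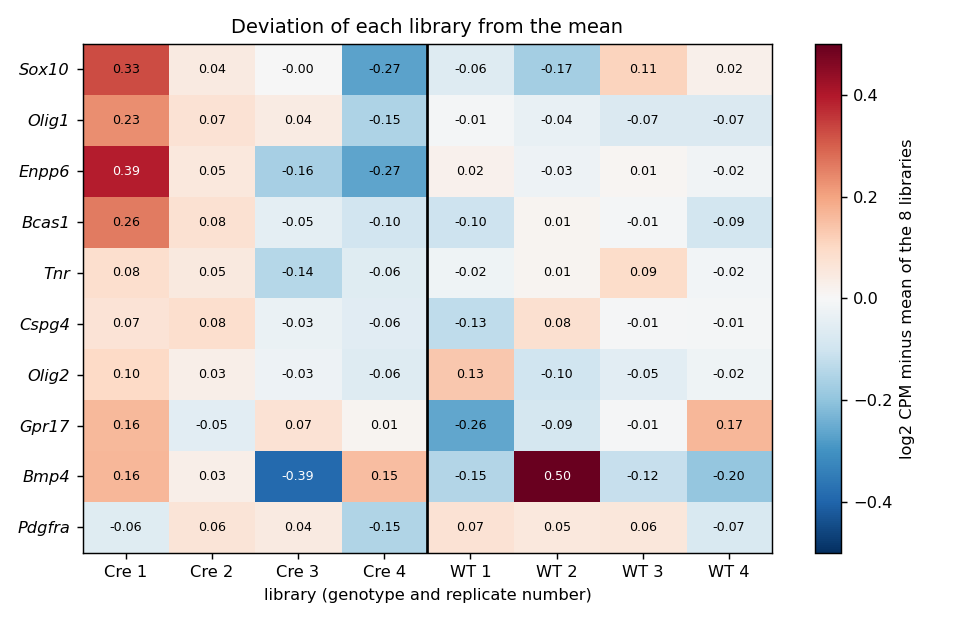
Log2 CPM of each member (lines) in each library (columns, Cre at the left of the black line and WT at the right) minus the mean of the 8 libraries, in red where above and in blue where below. Sox10, Olig1, Enpp6 and Bcas1 are high in Cre replicate 1 (0.23 to 0.39) and below their means in Cre replicate 4 (-0.27 to -0.10), while Pdgfra is at -0.06 in Cre replicate 1 and at -0.15 in Cre replicate 4.

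The spread within Cre exceeded that within WT in 6 of 10 members, a difference that was not tested. The share among all genes was not computed, so this count cannot be read as particular to the members. The coefficient of variation of Enpp6 was 21.4% in Cre and 1.55% in WT, and that of Olig1 was 10.9% in Cre and 2.06% in WT. Sox10 varied by 16.9% in Cre and 8.33% in WT, and Bcas1 by 11.2% in Cre and 4.03% in WT. The spread was wider in WT for Gpr17 (6.36% in Cre and 12.3% in WT) and Bmp4 (17.3% in Cre and 25.9% in WT). It was also wider in WT for Olig2 (4.94% in Cre and 7.16% in WT) and Cspg4 (4.89% in Cre and 5.90% in WT). Counting error alone gives about 9.54% at the depth of Enpp6 and 1.82% at that of Olig1, so the agreement of the WT libraries for Enpp6 was closer than counting error would give on average.

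In Cre replicate 1, where these genes were high, markers of mature oligodendrocytes and of microglia were high too, while those of astrocytes were high in sum only. The 15 mature myelin genes summed to 5347 CPM in that library; the other Cre libraries had 4160 to 4999 CPM, and WT had 4149 to 4600 CPM. The 10 microglia markers, all with fold changes above 0, summed to 454 CPM there; the rest of Cre had 338 to 350 CPM, and WT had 313 to 333 CPM. The 10 astrocyte markers, 9 of them above 0, summed to 6159 CPM there, against 5555 to 5874 CPM in the rest of Cre and 5159 to 5543 CPM in WT. Slc1a2 (3354 CPM), Gfap (789 CPM), Aqp4 (168 CPM) and S100b (85.9 CPM) were the highest of all libraries there. Fgfr3 (107 CPM) was the lowest of all libraries, and Aldoc (730 CPM) and Gjb6 (37.7 CPM) were the lowest of Cre. Slc1a3, Gja1 and Aldh1l1 lay within the range of the other libraries. Over all libraries, 5 of 10 microglia and 4 of 10 astrocyte markers had an unadjusted p under 0.05, all higher in Cre, beside 2.05% of all genes, and the smallest adjusted p among them was 0.999 by edgeR. In 3 of these microglia markers and 2 of these astrocyte markers, Csf1r and Slc1a2 among them, the genotypes did not overlap, as in 2.31% of all genes. None of these markers was at 0 counts in every library, and their part in the values of the members was not tested. Without Cre replicate 1 the median log2 fold change of the members was -0.03.

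Whether members vary together was examined over the 8 libraries, for all 45 pairs of members on log2 CPM. Of the 45 Pearson correlations 38 were positive, 8 had an exact permutation p under 0.05 before adjustment, and 0 passed after Benjamini-Hochberg adjustment over the 45 pairs. Without Cre replicate 1, 2 pairs had an exact permutation p under 0.05 before adjustment. The shares among pairs of all genes were not computed, so these counts cannot be read as particular to the members. By Pearson's r the 5 pairs with the smallest p all joined 2 of Olig1, Sox10, Enpp6 and Bcas1. Olig1 and Bcas1 had r = 0.86 (exact permutation p = 0.0112, adjusted p = 0.210) and Spearman's rho = 0.60 (exact permutation p = 0.132, adjusted p = 0.496). Sox10 and Enpp6 had r = 0.85 (exact permutation p = 0.0124, adjusted p = 0.210) and rho = 0.76 (exact permutation p = 0.0368, adjusted p = 0.390). Cre replicates 1 and 4 were the libraries farthest from the median of Olig1 and of Sox10. When both were left out, r was 0.47 for Olig1 and Bcas1 and 0.14 for Sox10 and Enpp6. Leaving out the farthest libraries narrows the range and can itself lower r. How far both relations rest on those libraries was therefore not settled. For the same pairs, in that order, r was 0.58 and 0.64 without Cre replicate 1 alone. By Spearman's rho the smallest p of the 45 belonged to Cspg4 and Bcas1, with rho = 0.90 (exact permutation p = 0.00456, adjusted p = 0.205) and r = 0.73 (exact permutation p = 0.0352, adjusted p = 0.251). That pair had r = 0.72 without its farthest libraries, Cre replicate 2 and WT replicate 1, and r = 0.86 without Cre replicate 1 (exact permutation p = 0.00952, adjusted p = 0.429). Olig1 and Olig2, neighbours on chromosome 16, had r = 0.62 (exact permutation p = 0.101, adjusted p = 0.432) and rho = 0.64 (exact permutation p = 0.0962, adjusted p = 0.393). Without Cre replicates 1 and 4, r of this pair was 0.34.

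Each member was then set against the mean log2 CPM of the 15 mature myelin genes, a relation chosen after the values were seen, measured in the same libraries. Of these 10 relations 4 passed by Pearson's r after Benjamini-Hochberg adjustment over the 10, those of Bcas1, Olig1, Enpp6 and Sox10. The share of all genes that would pass against the same mean was not computed, so this count cannot be read as particular to the members. Bcas1 had r = 0.96 (exact permutation p = 9.92e-05, adjusted p = 0.000992) and rho = 0.98 (exact permutation p = 0.000397, adjusted p = 0.00397). Its r was 0.81 without Cre replicates 1 and 2, its farthest libraries, and 0.96 after each genotype was centred on its mean. Olig1 had r = 0.91 (exact permutation p = 0.00278, adjusted p = 0.0103) and rho = 0.69 (exact permutation p = 0.0694, adjusted p = 0.139). Enpp6 had r = 0.89 (exact permutation p = 0.00308, adjusted p = 0.0103) and rho = 0.64 (exact permutation p = 0.0962, adjusted p = 0.160), and Sox10 had r = 0.80 (exact permutation p = 0.0180, adjusted p = 0.0451) and rho = 0.69 (exact permutation p = 0.0694, adjusted p = 0.139). Without Cre replicates 1 and 4, r was 0.60 for Olig1, 0.42 for Enpp6 and 0.17 for Sox10. Leaving out the farthest libraries narrows the range and can itself lower r. How far these 3 relations rest on those libraries was therefore not settled. Without Cre replicate 1 alone, Bcas1 was the member that still passed (r = 0.92, exact permutation adjusted p = 0.00794). There r was 0.76 for Olig1, 0.68 for Enpp6 and 0.53 for Sox10 (exact permutation adjusted p = 0.167, 0.254 and 0.336).

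Pdgfra, the precursor receptor, had r = 0.15 with the myelin mean (exact permutation p = 0.747, adjusted p = 0.747) and rho = 0.24 (exact permutation p = 0.582, adjusted p = 0.728), and r = -0.80 without Cre replicate 4 and WT replicate 4. Its r was 0.62 without Cre replicate 1 (exact permutation p = 0.163, adjusted p = 0.326), so the value for Pdgfra depends on single libraries. Gpr17 had r = 0.32 (exact permutation p = 0.442, adjusted p = 0.553) and rho = 0.05 (exact permutation p = 0.935, adjusted p = 0.935), and r = 0.39 without WT replicates 1 and 4. Cspg4 passed by rank and not by Pearson's r, with rho = 0.88 (exact permutation p = 0.00724, adjusted p = 0.0362) and r = 0.74 (exact permutation p = 0.0363, adjusted p = 0.0727), and r = 0.75 without Cre replicate 2 and WT replicate 1. Tnr passed by neither measure over the 8 libraries, with r = 0.62 (exact permutation p = 0.0989, adjusted p = 0.165) and rho = 0.71 (exact permutation p = 0.0576, adjusted p = 0.139), and its r was 0.99 without Cre replicate 3 and WT replicate 3. Olig2 and Bmp4 also passed by neither measure.

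**Figure D4:**
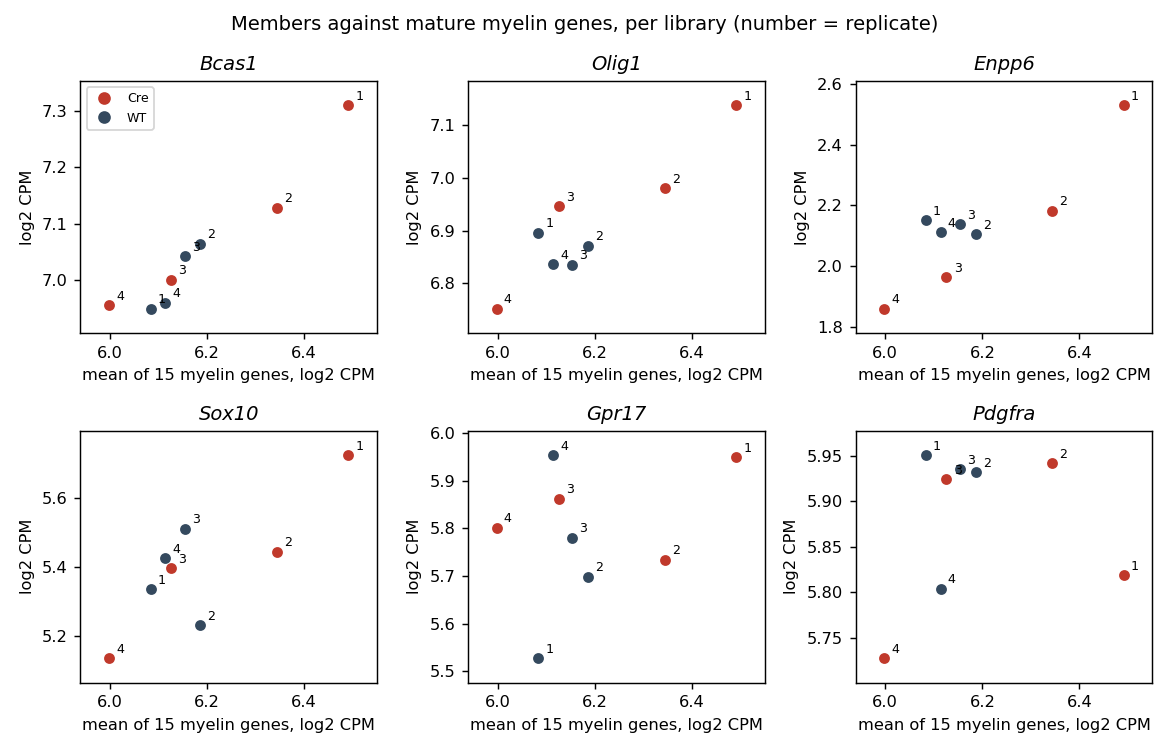
Log2 CPM of 6 members (y axes) against the mean log2 CPM of 15 mature myelin genes (x axis), where each point is 1 library with its replicate number, Cre in red and WT in dark blue. Bcas1 rises along the myelin mean over all 8 libraries (r = 0.96), while r is 0.32 for Gpr17 and 0.15 for Pdgfra, the value for Pdgfra being 0.62 without Cre replicate 1.

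Other genes of the lineage were described from lists of precursor genes, committed and newly formed oligodendrocyte genes, transcription factors, signalling genes and mature myelin genes. The lists are not exclusive to the lineage, since Fgfr3 is both in the signalling list and among the astrocyte markers. In the 5 lists, edgeR's quasi-likelihood test called 0 genes after adjustment over the whole table, and limma voom also called 0, while DESeq2 called 1, the transcription factor gene Hes5. At an unadjusted p under 0.05 there were 0 precursor genes, 1 committed gene (lower), 1 transcription factor gene (lower), 2 signalling genes (higher) and 2 myelin genes (higher), beside 2.05% of all genes higher and 1.45% lower.

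Among 16 precursor genes, 11 lay above 0 and 5 below, with a median log2 fold change of 0.04. The genes with the smallest p were Ptprz1, a receptor phosphatase gene (260 ± 8.15 CPM in Cre, 249 ± 5.58 CPM in WT), the matrix gene Matn4 (14.4 ± 1.03 CPM in Cre, 13.2 ± 0.44 CPM in WT), Megf11 (16.2 ± 2.75 CPM in Cre, 18.2 ± 1.72 CPM in WT) and Xylt1, which starts glycosaminoglycan chains (31.4 ± 2.21 CPM in Cre, 33.3 ± 1.78 CPM in WT). Their values overlapped between the genotypes. Among 12 committed and newly formed oligodendrocyte genes tested, 9 lay above 0 and 3 below, with a median of 0.05. Tmem2, a cell surface hyaluronidase gene, had 15.9 ± 1.21 CPM in Cre and 17.98 ± 0.70 CPM in WT (log2 fold change -0.18, SE 0.07), and did not pass (adjusted p = 0.999 by edgeR). The next in the list were Itpr2, a calcium release channel gene (0.09), the sulfotransferase gene Ust (-0.09) and Mpzl1 (0.10), given as log2 fold changes.

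Among 16 transcription factor genes tested, 10 lay above 0 and 6 below, with a median of 0.03. Hes5, a Notch effector gene whose product keeps precursors undifferentiated, had 7.03, 8.61, 8.26 and 7.91 CPM in Cre, against 11.4, 10.5, 10.8 and 11.2 CPM in WT. The groups did not overlap, and the log2 fold change of -0.47 (SE 0.08) did not pass by edgeR (adjusted p = 0.261). Whole tissue does not show which cells the Hes5 RNA came from. The next smallest p-values belonged to Sox11 (0.18), the differentiation inhibitor gene Id4 (0.15) and Sox5 (-0.14), as log2 fold changes, with overlapping groups. Among 27 signalling genes, 10 lay above 0 and 17 below, with a median of -0.03. Bmpr1b, which encodes a receptor for bone morphogenetic proteins such as BMP4, had 28.2 ± 2.13 CPM in Cre and 25.4 ± 1.05 CPM in WT (log2 fold change 0.15, SE 0.06). Erbb3, a neuregulin receptor gene of the lineage, had 11.5 ± 1.19 CPM in Cre and 9.997 ± 0.68 CPM in WT (0.20, SE 0.09), and neither passed (adjusted p = 0.999 by edgeR). They were followed by the activin receptor gene Acvr1 (0.11) and by Pdgfc, which encodes a ligand of the Pdgfra product (-0.21).

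All 15 mature myelin genes lay above 0, with a median log2 fold change of 0.11, and the genotypes overlapped in each of them. The smallest p-values belonged to Mobp (720 ± 75.4 CPM in Cre, 625 ± 59.4 CPM in WT), Mal (183 ± 22.4 CPM in Cre, 159 ± 13.3 CPM in WT), Cldn11 (127 ± 14.1 CPM in Cre, 114 ± 6.17 CPM in WT) and Cnp (295 ± 43.6 CPM in Cre, 263 ± 2.55 CPM in WT). The median of the 10 members, 0.03, lay beside the medians of the precursor, committed and transcription factor lists (0.04, 0.05 and 0.03) and below that of the myelin list, a difference between lists that was not tested.

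**Figure D5:**
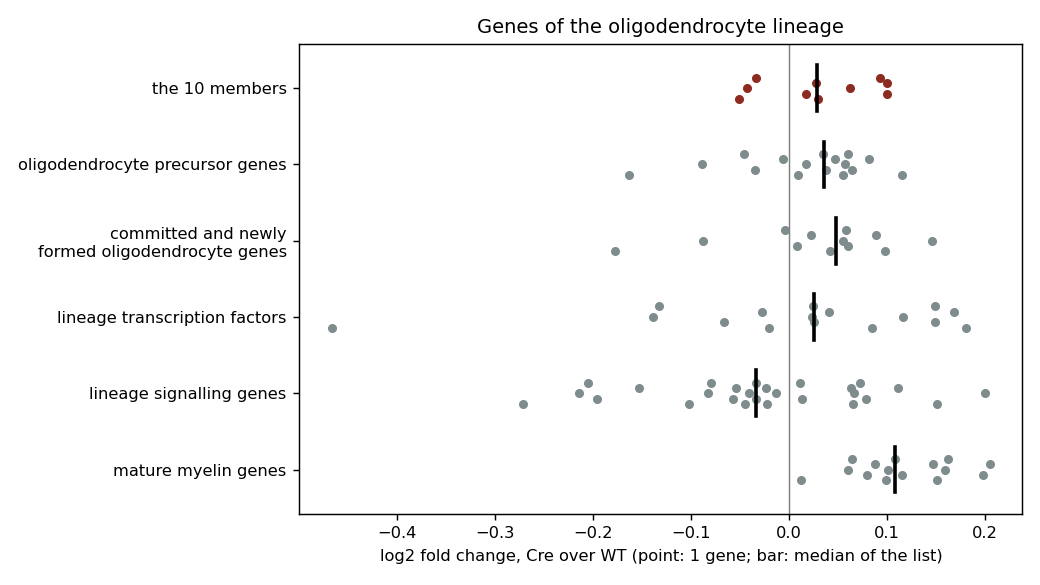
Log2 fold change, Cre over WT (x axis), of every tested gene (points) in the 10 members and the 5 other lineage lists (lines), with the median of each list as a black bar. The medians run from -0.03 for the signalling genes to 0.11 for the myelin genes, and the point farthest to the left is Hes5 at -0.47.

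Cells that share single members with the lineage were checked by their markers. The 8 markers of interneurons and perineuronal nets, 3 of them above 0 and led by Gad1 (304 ± 12.6 CPM in Cre, 309 ± 10.9 CPM in WT), summed to 767 to 857 CPM in Cre and 821 to 871 CPM in WT. The most abundant pericyte marker was Rgs5 (84.2 ± 10.2 CPM in Cre, 86.0 ± 7.72 CPM in WT), and the most abundant marker of meningeal fibroblasts, which also express Pdgfra, was Dcn (40.3 ± 7.49 CPM in Cre, 45.4 ± 2.84 CPM in WT). The 8 endothelial markers, 4 above 0 and 4 below with a median log2 fold change of 0.01, were led in level by Flt1 (50.1 ± 3.17 CPM in Cre, 47.1 ± 2.76 CPM in WT). The most abundant glial markers were, among microglia Csf1r (98.98 ± 9.82 CPM in Cre, 87.7 ± 1.91 CPM in WT) and among astrocytes Slc1a2 (3210 ± 104 CPM in Cre, 2974 ± 108 CPM in WT). The proliferation markers in the table, which would mark dividing precursors among other cells, summed to 4.33 to 6.65 CPM in Cre and 4.57 to 5.97 CPM in WT. Top2a, a topoisomerase gene of dividing cells, had 1.67 ± 0.47 CPM in Cre and 1.57 ± 0.20 CPM in WT. Mki67, another gene of dividing cells, had 1.83 ± 0.55 CPM in Cre and 1.38 ± 0.11 CPM in WT (log2 fold change 0.39, SE 0.23), with overlapping groups. None of the markers named here passed the threshold over all genes.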

How the data were processed

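Poly(A) RNA from hippocampus was made into libraries with a directional kit and read in paired ends, per the labels' protocols. The authors deposited whole-number counts per gene symbol, not normalized. The genome was GRCm38, and the tools named were STAR 2.6.1d, featureCounts and edgeR 3.11, per the submitters' processing notes; the annotation release and strand setting were not given in the sources used here. The authors' deposited table also gives a log2 fold change, a signed fold in linear units, an average log2 CPM, the same average as a linear score, and a p-value whose adjustment is not stated.

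All libraries entered one fit: edgeR 4.0.16 in R 4.3.3, filterByExpr (minimum count 10, minimum total 15), TMM, quasi-likelihood test without covariates, Benjamini-Hochberg adjustment over 15859 genes. Log2 CPM used a prior count of 2. Intervals are at 95%. The members and lists were chosen with earlier results of these data known. Besides the 10 members, the text names the up to 4 genes with the smallest p in each lineage list, the most abundant gene of each marker list over both genotypes, and Syt2 and Camk2a; Lims2, Mki67 and the genes named for their place in a window or overlap were chosen after their values were seen. Casr was too low to test and 2 lineage symbols have no row. The most abundant choroid plexus marker, Ttr, had 878 CPM in WT replicate 1, against 2.79 to 13.4 CPM in Cre and 1.70 to 8.75 CPM in the other WT libraries. No pair of replicates was a copy: the chi-square per degree of freedom between libraries of a group was at least 3.38. Alternatives were DESeq2 1.42.0, limma 3.58.1 voom, other scalings and filters, a replicate block and leaving out each library. The fit was tested on simulated data. Without molecular identifiers reads are not independent molecules, so counting errors cover counting only.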

Additional observations from a re-analysis of the deposited data

Results flagged for a closer look

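Dixon's rule was applied to the CPM of the 10 members in each genotype, 20 groups of 4 libraries, and chance flags about 1 in 20 such groups. It marked 2 libraries. Bmp4 in WT replicate 2, at 2.71 CPM, stood above the other WT libraries (1.65 to 1.74 CPM). Pdgfra in WT replicate 4, at 55.9 CPM, stood below the other WT libraries (61.1 to 61.8 CPM).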

How the results depend on the processing

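No member passed the threshold under any of the 16 alternatives, which left the count of all genes called between 4 and 7. Of 160 member fold changes under them, 151 kept their direction and 9 turned. With limma voom Enpp6 was -0.0021. Leaving out each library in turn gave log2 fold changes from -0.014 to 0.068 for Olig2, -0.047 to 0.15 for Sox10, -0.12 to 0.11 for Enpp6, -0.11 to 0.16 for Bmp4, -0.068 to 0.0074 for Tnr and -0.0066 to 0.065 for Cspg4. Pdgfra (-0.084 to -0.0098), Olig1 (0.036 to 0.16), Gpr17 (0.025 to 0.17) and Bcas1 (0.025 to 0.15) kept their sign. By edgeR's quasi-likelihood test the smallest unadjusted p was 0.00714 for Olig1 and 0.0394 for Bcas1, both without Cre replicate 4. For Gpr17 it was 0.0272, without WT replicate 4. The sign changed without Cre replicate 1 (Olig2, Sox10, Enpp6), Cre replicate 3 (Bmp4, Tnr), WT replicate 1 (Cspg4) or WT replicate 2 (Olig2, Bmp4). The median of the members ran from -0.03 (without Cre replicate 1) to 0.08. Among the lineage lists, DESeq2 alone added a call, 1 transcription factor gene (Hes5, adjusted p = 0.0203). The relations with the myelin mean that passed numbered 1 in place of 4 without Cre replicate 1, an alternative added after the data were seen. The labels do not say whether libraries with the same replicate number share anything, and the values here cannot decide it. Deviations of libraries with the same number correlated at 0.20, -0.11, 0.02 and 0.02 for replicates 1 to 4. Cre replicate 1 and WT replicate 1 were each the best match of the other, which held for no other number. With the replicate block 6 genes were called over all genes, against 5 without it. Bmp4 and Enpp6 have the fewest counts.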
